A study of Drosophila melanogaster with 136 samples.

Results

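The adult carcass of Drosophila melanogaster was profiled on 4 of the 136 microarrays of a tissue atlas of the fly, and these 4 arrays, chosen by their sample label, are described here against 71 arrays of other dissected adult organs. Each carcass sample was total RNA of the abdominal cuticle dissected from 25 female and 25 male Canton S flies, 7 days old, kept at 23 C under a 12:12 light cycle. The labels call the 4 carcass samples biological replicates, which they do not say of salivary gland, thoracoabdominal ganglion and virgin and mated spermatheca. The p-values below rest on the spread between arrays of the same group, pooled over all 19 groups compared. They do not measure the spread between organs. The label names the cuticle, which is not itself a cell layer, and the cell types of the sample are described below by their marker genes.

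The comparison set held 18 groups. Both sexes contributed to hind gut, mid gut, crop, salivary gland, brain, thoracoabdominal ganglion, eye, fat body of thorax and abdomen, dorsal abdominal heart, tracheal trunks and wings, and the label of the accessory glands gives both sexes too. Females alone contributed ovary and virgin, mated and redone mated spermatheca. Males alone contributed testes and the ejaculatory duct with its bulb. All were Canton S flies of the same age. Every group had 4 arrays except the redone mated spermatheca, for which 3 were used. The labels describe the spermatheca as surrounded by fat body, the heart as carrying adherent tissue and the eye as carrying head cuticle. Eye and heart RNA was labelled with another kit and the virgin and mated spermatheca groups, with 1 redone array, with 2 rounds of amplification, so processing and tissue cannot be told apart there. Thoracic muscle, head and whole fly were kept out of the comparison, and thoracic muscle and whole fly values are given only beside it.

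The abdominal body wall of an insect is a layered organ. An epidermis lays down and tans the cuticle, thin segmental muscles run beneath it, and clusters of oenocytes lie against its inner face, where they build the waxy hydrocarbons that waterproof the fly and serve as sex pheromones. Fat body, the fly's counterpart of liver and adipose tissue, fills the space below, with hemocytes and the dorsal vessel close by.

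Values are the authors' array signals, a linear brightness scaled so that the trimmed mean of every array is 100. Probe sets were compared as log2 of the signal plus 10, and a difference is the carcass mean minus the mean of the 18 other group means. A probe set was called where the limma fit over all 75 arrays gave a Benjamini-Hochberg adjusted p under 0.05 and a difference of at least 2-fold. On this scale folds of dim genes are understated. Microarrays give no read depth, and the number of arrays limits the precision. The 4 carcass arrays correlated with each other at 0.966 to 0.975 over log2 signals. Their median signal was 15.7 ± 1.74 (SD, n = 4), below the median of salivary gland alone among the 19 groups, and the difference over all genes had a median of -0.08 on the log2 scale.

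Of 17364 probe sets tested, 9.38% were called. Of these, 1360 were higher in carcass than the mean of the other tissues (7.83%) and 269 were lower (1.55%). Taking the brightest probe set of each gene, 1134 of 11755 genes were higher (9.65%) and 210 lower (1.79%). The higher genes included 460 that rose at least 4-fold and 80 that rose at least 16-fold, whereas 4 of the lower genes fell at least 4-fold. Carcass had the highest mean of the 19 groups for 148 of the 1134 genes, rank 2 or 3 for 390, rank 4 to 6 for 484 and a lower rank for 112. Over all 11755 genes it had the highest mean for 267. The other organ with the highest level of the 1134 genes was most often the wing, for 214 genes (18.9%), followed by redone mated spermatheca for 126, crop for 124, fat body for 105 and heart for 99. The shares of these organs over all genes were not counted, and no likeness is read from them.

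Genes of cuticle, muscle and hydrocarbon synthesis were among the 20 with the largest rises. Cpr49Ab, a cuticular protein of the chitin-binding Rebers and Riddiford family, read 3453, 3346, 3051 and 2952 on the 4 carcass arrays. All 4 lay above every array of the other organs, of which trachea came nearest, at 51.6, 17.4, 367 and 1859, and whole flies averaged 198. The difference of Cpr49Ab was 7.24 ± 0.37 on the log2 scale (SE, adjusted p = 9.0e-26). Scp1, a sarcoplasmic calcium-binding protein, read 5737, 6265, 4736 and 5066 against a mean of 3605 in wings and 1365, 2244, 5199 and 337 in trachea. Only 2 arrays of these 2 groups reached the lowest carcass array, and the difference was 7.00 ± 0.27 (adjusted p = 4.7e-32).

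Fad2, the desaturase of the female dienes among the cuticular hydrocarbons, read 4543, 4427, 4378 and 4386. Fat body, at a mean of 4517, overlapped this range, every heart array lay above it (mean 5891) and 1 trachea array reached it, whereas wings held 16.2, and the difference was 6.95 ± 0.47 (adjusted p = 2.5e-20). Other genes among the 20 with the largest differences that act on fatty acids were eloF, an elongase of the female dienes, at 6.30 ± 0.47, FASN3, a fatty acid synthase, at 6.19 ± 0.43, and CG16904, of the elongase family, at 6.76 ± 0.53. Obp56a, of the odorant-binding proteins, read 1339.7, 1441, 1739 and 1407, all above the 192 of wings, with a difference of 6.37 ± 0.20 (adjusted p = 3.4e-36). CG13428 read 2873, 3079.9, 2731 and 2570.1, below the mean of 5862 in wings and far above 8.02 in fat body and 2.50 in heart.

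**Figure D1:**
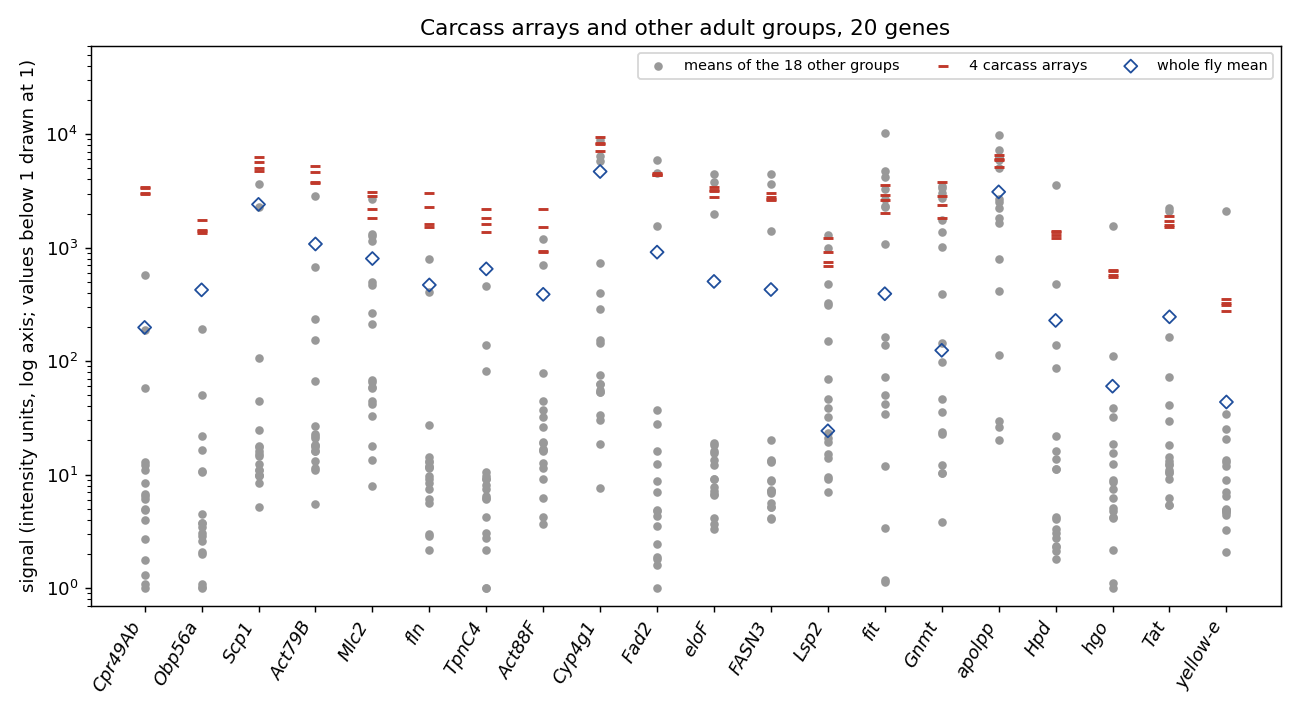
Signal (log axis, array units with a trimmed mean of 100) of 20 genes on the 4 carcass arrays (red bars), with the means of the 18 other groups (grey points) and of whole fly (blue diamonds), where values below 1 are drawn at 1. The carcass bars of Cpr49Ab, Obp56a, TpnC4 and fln lie above every other group mean, while those of Fad2 and eloF lie among the highest other groups and those of Hpd, hgo and yellow-e below 1 group.

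For 116 probe sets (0.668%) and 87 genes (0.74%) every carcass array stood above every array of the other organs, and for 25 of them (0.213%) the carcass mean was also at least 2-fold above the next group. CG12158 stood farthest apart, at 424 ± 73.1 (SD, n = 4) against 31.9 in wings, a gap of 10.4-fold. CG2070 followed at 287 ± 19.5 against 30.0 in fat body, then Obp56a and aspr, the latter at 892 ± 112 against 114 in the ejaculatory duct. The 25 genes also held 2 genes of flight muscle, TpnC4 and fln, and the formin gene Fhos at 867 ± 112 against 298 in trachea. Npl4, a cofactor of the p97 segregase, averaged 3091 ± 82.3 against 809 in trachea, and Mpcp1, a mitochondrial phosphate carrier, 3075 ± 356 against 969.7 in heart. CheB93a and CheB93b, of a family of chemosensory proteins, belonged to the set at low levels, 30.8 ± 3.63 and 38.1 ± 13.3. Over all 87 genes the next organ was most often crop, for 14, or wings, for 10, again without the shares over all genes.

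Most sarcomere genes were higher in carcass, beside 9.65% of all genes. Of 26 sarcomere genes measured, 23 were higher in carcass and none was lower, with a median difference of 2.97 beside -0.08 for all genes. Their summed signal was 57415, 64520.4, 48456 and 48775 on the 4 arrays, second to crop at 68535, a visceral muscle pouch, and above heart at 36366, wings at 25861, fat body at 3349 and whole fly at 20699. The wing arrays spread widely for such genes, from 480 to 2652 for Mlc2 and from 1642 to 5297 for Act79B. Crop held the highest other level of several shared sarcomere genes. Mlc2, the myosin regulatory light chain, read 2865, 3091, 1834 and 2189.6 against 2694 in crop. Its carcass arrays overlapped those of crop and wings, and the difference from all organs was 4.01 ± 0.20 (adjusted p = 8.0e-27). Mlp84B, a LIM protein of the Z disc, read 2398, 2759, 2480.1 and 2343 and Act87E, a muscle actin, 3079, 3490.2, 2540.1 and 2443, with differences of 3.50 and 3.32. The giant proteins bt (projectin), sls (kettin and the fly titin) and Obsc (obscurin) differed by 3.32, 2.59 and 3.71, and Zasp52 and Actn of the Z disc by 2.63 and 2.01. The 3 sarcomere genes that were not called were Zasp67 at 0.84 ± 0.13, TpnC73F at 0.55 ± 0.15 and Msp300, a nuclear anchoring nesprin, at 0.22 ± 0.17. Another Msp300 probe set, averaging 203 in carcass against 303 for the one used, was called higher, at 2.24 (adjusted p = 6.2e-19). Its dimmer probe sets, averaging 10.6, 19.6 and 17.4, were not called.

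The labels place this tissue in the abdomen, and forms of contractile proteins known from thoracic muscle were measured in it. Flightin, encoded by fln, belongs to the thick filaments of the indirect flight muscles. Its signal was 2288, 3028, 1618 and 1519.7 on the carcass arrays, 679, 1428, 751 and 347 in trachea, 11.8 in heart, 12.9 in fat body and 469 in whole fly. All 4 carcass arrays exceeded every other dissected organ, with a difference of 6.28 ± 0.27 (adjusted p = 2.3e-29), and all lay below thoracic muscle arrays 1 to 3, at 12732, 20641 and 15126. The library labelled thoracic muscle array 4 read 9.93 for fln and 2.28 for Act88F, against its label, and is not used here. TpnC4, the troponin C of stretch-activated flight muscle, read 1811, 2214, 1361 and 1614, above every array of the 18 other organs, against 11587, 15942 and 10661 in thoracic muscle arrays 1 to 3 (6.29 ± 0.25, adjusted p = 2.5e-31). Act88F, the flight muscle actin, read 1534, 2210.4, 927 and 923 and overlapped trachea, at 1493, 1529, 982 and 771, and 1 wing array, with a difference of 5.04 ± 0.23 from the mean of all organs (adjusted p = 3.3e-28).

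Forms of the tubular leg and jump muscles ran the other way between the 2 preparations. Act79B, the actin of tubular muscle, read 4643, 5197, 3755 and 3679.8 in carcass and 376, 290.2 and 130.2 in thoracic muscle arrays 1 to 3. TpnC41C, the troponin C of the jump muscle, read 2217, 2453, 1739.9 and 1779.6 in carcass and 983, 355 and 253 there. Every carcass array thus lay above the thoracic muscle arrays for both genes, and above all but 1 wing array. Against the mean of the 18 organs the differences were 6.35 ± 0.22 (adjusted p = 2.2e-34) and 6.27 ± 0.27 (adjusted p = 7.2e-30). The summed signal of fln, TpnC4 and Act88F was 5633, 7453, 3906 and 4057 in carcass, 1508 in whole fly and 30837 to 51462 in thoracic muscle. Carcass array 2 was highest for all 3 genes and arrays 3 and 4 were lowest for fln and Act88F. Act87E and TpnC73F were listed as larval and abdominal forms. Their summed signal was 3272, 3660, 2741 and 2564 in carcass and 44.7 to 124 in thoracic muscle arrays 1 to 3. It was 1584 in whole fly and highest in crop, at 9414. Whether thoracic muscle was part of the dissected tissue was not tested.

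**Figure D2:**
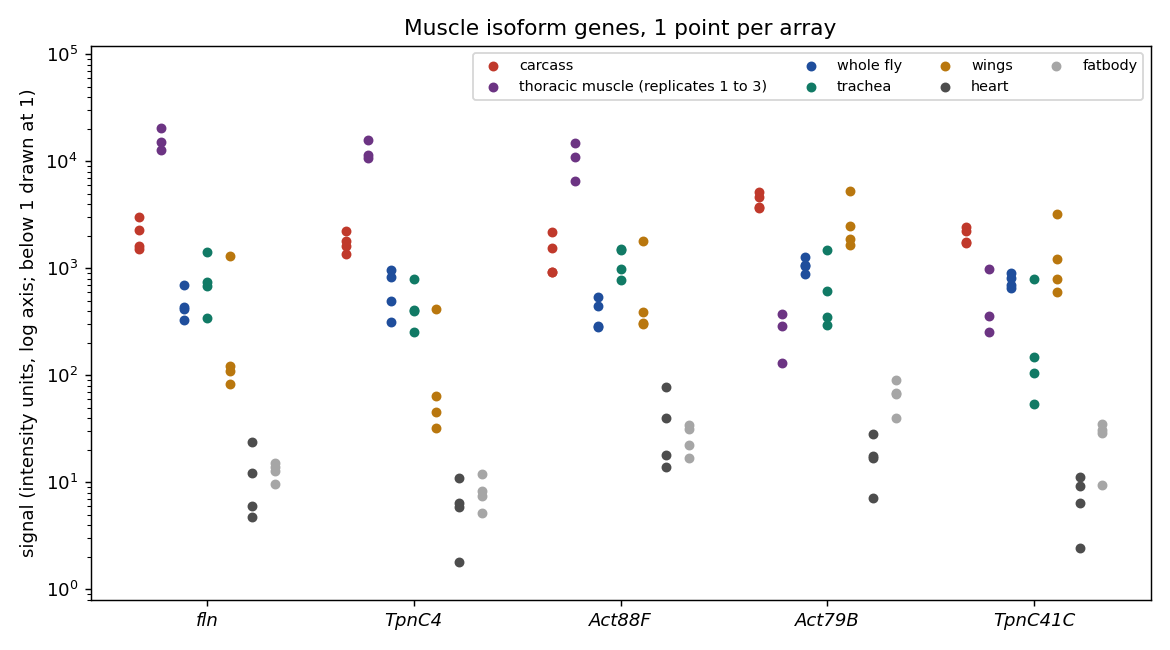
Signal (log axis) of fln, TpnC4, Act88F, Act79B and TpnC41C on each array of carcass, thoracic muscle (replicates 1 to 3), whole fly, trachea, wings, heart and fat body. In carcass the flight muscle genes lie between whole fly and thoracic muscle, while Act79B and TpnC41C lie above thoracic muscle.

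Genes of excitation and of the neuromuscular junction were higher for 5 of 19, beside 9.65% of all genes, with a median of 0.43. SERCA, the calcium pump of the sarcoplasmic reticulum, read 5458, 5809, 4887 and 4669, above every array of the other organs, of which wings averaged 3440.0, with a difference of 2.59 ± 0.11 (adjusted p = 2.5e-29). RyR, the calcium release channel, read 381, 324, 342 and 252, and 1 heart array reached its lowest carcass array (2.40 ± 0.16). The potassium channel gene slo, the junctophilin gene jp and the arginine kinase gene Argk1 differed by 1.85, 1.73 and 1.54. The glutamate receptor subunits of the muscle membrane were not called, with GluRIIA at 0.34 ± 0.13, GluRIID at 0.80 ± 0.12 and GluRIIE at 0.56 ± 0.14.

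Of 15 regulators of muscle development, 4 were higher and 1 was lower, beside 9.65% and 1.79% of all genes, and the median was 0.03. The MyoD homologue nau read 45.5, 49.3, 38.8 and 42.0, all above the other organs, of which mid gut had the highest mean, 18.9, and above whole fly at 12.7 (1.80 ± 0.16, adjusted p = 5.1e-15). The flight muscle selector salm, which oenocytes also use, differed by 1.93, and ap and vg, which act in wing and in muscle founder cells, by 1.27 and 1.06. A dimmer vg probe set, averaging 21.9 in carcass against 54.5, was not called, at 0.49. The myoblast fusion gene blow was lower, at -1.07 ± 0.11, its highest organ being the ejaculatory duct at 1243.

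Part of the mitochondrial respiratory chain was higher, beside 9.65% of all genes. Of 66 respiratory chain genes, 17 were higher and none lower, with a median of 0.78. Their summed signal was 149945, 161885, 130953 and 139071. Its mean ranked first among the 19 groups, ahead of salivary gland at 136735, although carcass array 3 lay below that value. The mean was 201% of that in whole fly, while thoracic muscle arrays 1 to 3 ranged from 630679 to 1042000. The cytochrome c oxidase subunit gene COX7AL2 read 4024, 4729.6, 3228 and 3582, above every other organ (heart averaged 1643), against 19923, 33212 and 22046 in thoracic muscle (5.12 ± 0.20, adjusted p = 1.0e-31). ND-B8, a complex I subunit, read 319, 249.8, 307 and 277 against 5424, 5989 and 4219.9 in thoracic muscle and at most 157, in testes, as a group mean elsewhere (4.20 ± 0.16). ND-75, the large complex I subunit, read 1762, 1782, 1993 and 1683, also above every array of the other organs (1.70 ± 0.07). ATPsynbeta of the ATP synthase differed by 1.62, while another of its probe sets, averaging 1983 in carcass against 5706, was not called, at 0.81. The other 49 genes were not called.

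Enzymes of sugar storage and use rose in part, beside 9.65% of all genes called higher. Of 11 glycolytic genes 5 were higher, with a median of 0.90, and of 9 genes of trehalose and glycogen 6 were, with a median of 1.27. Tps1, which makes trehalose, the sugar of fly blood, read 4687, 5401, 4738 and 5156 against 5409 in fat body, 4343 in heart and 283 in wings. It overlapped fat body and virgin and mated spermatheca, lay below every array of redone mated spermatheca, and stood 3.75 ± 0.22 above the mean of all organs (adjusted p = 1.5e-23). Glys, glycogen synthase, read 2162, 2258, 1657 and 2115 and had the highest mean of all 19 groups, with overlap from fat body and spermatheca (1.93 ± 0.12, adjusted p = 5.3e-22). The glycogen phosphorylase gene Glyp differed by 1.58 and the trehalose transporter gene Tret1-1 by 1.27, whereas Treh, which splits trehalose, was at -0.14 ± 0.11 and was not called. Hex-C, the hexokinase of fat body, differed by 3.26 ± 0.19, and Gpdh1, Gapdh1, Pgk and Pfk by 1.72, 1.19, 1.18 and 1.12.

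Cuticle genes varied widely among themselves. Of 98 cuticle protein genes tested, 15 were higher and 1 lower, beside 9.65% and 1.79% of all genes, so that 82 were not called, and the median was 0.21. The summed signal was 11305, 11563, 9601 and 9278, against 14792 in crop, 13682 in wings and 2562 in whole fly. Cpr49Ab was the one member above every other array. Cpr65Au, of the same family, read 3616, 3291, 3204 and 3001, with all 4 wing arrays (mean 6522) above them and no other array reaching them (5.92 ± 0.20, adjusted p = 1.2e-34). Cpr49Ae read 1419.5, 1939, 842 and 1038 against 5585 in crop, a foregut pouch lined with cuticle, and Cpr47Ef read 169, 239.9, 259 and 201 against 802 in wings. Cpr62Bb, Cpr97Eb, Cpr100A and Cpr66D differed by 3.72, 2.50, 2.38 and 2.28. Acp65Aa, an adult cuticle protein, was uneven at 104, 255, 65.6 and 62.2 (2.25 ± 0.33). The highest other organ of the 15 genes was wings for 7, crop for 3, eye for 2, trachea for 2 and mid gut for 1. The shares of these organs over all genes were not counted. The lower gene, Cpr51A, read 18.7, 9.91, 2.15 and 6.68 against 2214 in crop (-1.42 ± 0.15).

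The chitin and apical matrix genes were higher for 13 of 32, beside 9.65% of all genes, with a median of 0.78. The chitin-binding gene obst-A read 158, 153, 139 and 95.3 and had its highest mean in carcass, overlapping 2 wing arrays (2.86 ± 0.17). The chitin deacetylases serp and verm differed by 2.29 and 1.99, whereas the chitin synthase gene kkv did not pass, at 0.12 ± 0.23. The epidermal transcription factor gene grh read 75.5, 143, 159.8 and 162 against 1584 in wings (1.47 ± 0.17).

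Tanning genes were higher for 8 of 17, beside 9.65% of all genes, with a median of 0.87. The yellow family member yellow-e read 350.4, 323, 316 and 279 against 2114 in wings with the wing arrays alone above it (3.77 ± 0.19, adjusted p = 4.6e-26). Ddc, which makes dopamine, read 249.8, 245, 236 and 199 against 1289 in wings, overlapped eye and trachea, and lay below every array of wings, brain and ganglion (1.42 ± 0.17). Pu, the GTP cyclohydrolase, and speck, which acetylates dopamine, differed by 1.83 and 1.36. Tyrosine hydroxylase, encoded by ple at the head of the pathway, was near background at 8.01, 0.897, 0.811 and 3.49 and was not called (-0.36 ± 0.16), and neither were e, which couples dopamine to beta-alanine, at 0.72 ± 0.14 and the laccase gene stw at 0.77 ± 0.15.

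Of 7 genes listed for tyrosine breakdown, 5 were higher, beside 9.65% of all genes, with a median of 2.10. The summed signal was 3992, 4267, 4517 and 4371 against 8744 in wings and 847 in whole fly. Tat, tyrosine aminotransferase, read 1529, 1717, 1897 and 1592 and lay below every array of wings and eye and above every other array (5.23 ± 0.14, adjusted p = 8.9e-40). Hpd, the dioxygenase of the next step, read 1224, 1284, 1376 and 1413, against 3544 in wings, 21.8 in fat body and 86.2 in heart (5.37 ± 0.18, adjusted p = 1.4e-35). For hgo, homogentisate dioxygenase, the values were 580.1, 548, 628 and 637, against 1552 in wings (4.54 ± 0.16, adjusted p = 2.1e-34). For Hpd and hgo the 4 wing arrays lay above every carcass array and all other arrays below. GstZ2 and Faa, of the last steps, differed by 2.10 and 2.07. GstZ1 was not called, nor was Dhpr, a list member that does not itself break down tyrosine.

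Of 8 genes of segment identity and sex measured, 1 was called higher, near the 9.65% of all genes, and nothing is read from that count. It was dsx, the sex determination gene, at 329, 255, 237 and 288 with arrays of 8 other groups within or above that range (1.28 ± 0.10). A dimmer dsx probe set, averaging 81.0 in carcass, was not called, at 0.18 (adjusted p = 0.17). Scr differed by 0.86 ± 0.13 and Antp, which specifies the thorax, by 0.21 ± 0.15, and neither was called. The abdominal Hox genes are on probe sets that are unnamed here.

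**Figure D3:**
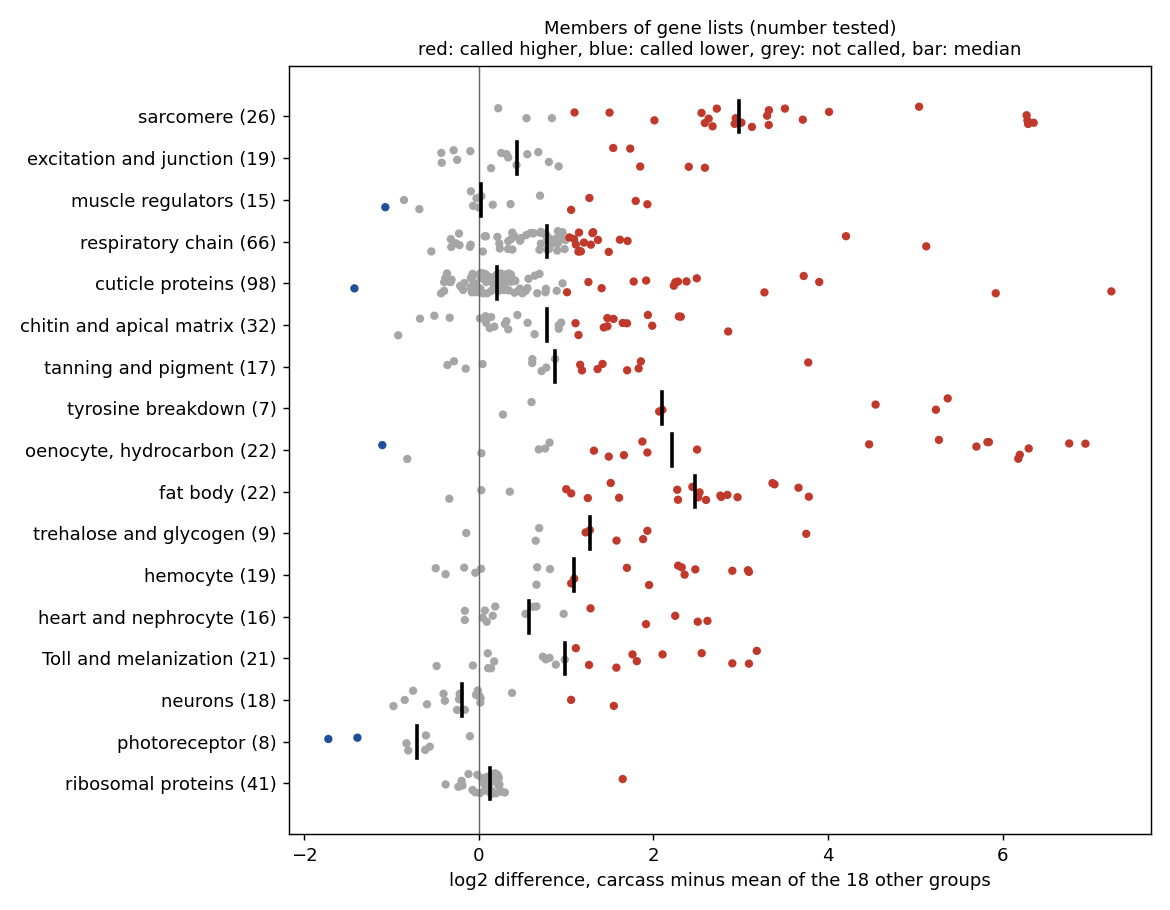
Log2 difference between carcass and the mean of 18 other adult organs for each measured gene of 17 gene groups (points) with the median of each group (bar). Sarcomere, fat body, oenocyte and tyrosine breakdown genes have medians above 2, while most cuticle genes lie near 0 with a few members far above.

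Genes of oenocytes and of hydrocarbon synthesis were higher for 16 of 22 and lower for 1, beside 9.65% and 1.79% of all genes. Their median was 2.21. Cyp4g1, the cytochrome P450 of the last step of hydrocarbon synthesis, read 8234, 9495, 7107 and 8354 against 8846 in heart, 5857 in fat body, 398 in wings and 4691 in whole fly. The trachea arrays spread widely, at 2808, 611, 8861 and 13227, and carcass arrays overlapped those of heart and trachea (5.84 ± 0.59, adjusted p = 4.2e-13). FASN2, an oenocyte fatty acid synthase, read 1911, 1859.8, 2401 and 2068 (5.70 ± 0.40), and FarO, an oenocyte fatty acyl-CoA reductase, 496, 471, 551 and 563 (4.47 ± 0.29). The elongase family members CG18609 and CG9459 differed by 5.82 and 5.27, and FASN1 and ACC, which every fat-making cell uses, by 1.87 and 1.66. Fad2, eloF and CG17560 followed Cyp4g1 most closely over the 19 group means of log2 signal, with Pearson correlations of 0.958, 0.955 and 0.952. Desat1, the desaturase of the main hydrocarbon pathway, was not called, at 0.81 ± 0.09, nor was svp, a nuclear receptor of oenocytes, at 0.76 ± 0.17. A dimmer svp probe set, averaging 57.5 in carcass against 203, was called higher, at 1.36 (adjusted p = 4.2e-10), and one averaging 5.54 was not. The elongase bond was lower, at 103, 101, 121 and 73.3 against 4240.1 in the ejaculatory duct (-1.10 ± 0.12). The summed oenocyte signal was 48866, 50914, 49115 and 50534 in carcass, beside heart at 60491 and fat body at 56642 and above wings at 7142. In bulk tissue, fewer cells of a type and less RNA per cell cannot be told apart.

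Fat body genes were higher for 19 of 22, beside 9.65% of all genes, with a median of 2.48. All 22 exceeded their whole fly mean. So did 25 of 26 sarcomere genes and 30 of 41 ribosomal protein genes, and nothing is read from that count. Lsp2, a storage protein of the larval serum proteins, read 1228, 696, 744 and 911 against 309.8 in fat body, 149.5 in heart and 24.3 in whole fly. Its arrays overlapped those of eye and of virgin and redone mated spermatheca, and lay 3.66 ± 0.40 above the mean of all organs (adjusted p = 3.5e-12). The lipoprotein gene apolpp read 6056, 6502, 5142 and 5889, beside 5922 in fat body (2.27 ± 0.13, adjusted p = 1.3e-23). Gnmt, which uses up S-adenosylmethionine, ranged more widely, at 1828, 2395, 2852 and 3806 (3.78 ± 0.34), and fit, a female-biased satiety peptide of fat body, read 3595, 2899.7, 2028 and 2652 (3.36 ± 0.27). The yolk protein genes Yp1, Yp2 and Yp3 differed by 2.53, 2.85 and 2.51, Pepck1 of gluconeogenesis by 2.96, and the lipid droplet genes Lsd-1 and Lsd-2 by 2.28 and 1.25. The lipase gene bmm, at 0.36 ± 0.12, and the larval fat body protein genes Fbp1, at 0.03 ± 0.20, and Fbp2, at -0.34 ± 0.23, were not called.

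Hemocyte genes were higher for 11 of 19, beside 9.65% of all genes, with a median of 1.09. Hml, the hemolectin of circulating and sessile blood cells, read 350.4, 309.7, 257 and 311 against 1209.8 in heart, 1631, 787, 855 and 582 in trachea and 39.8 in fat body (2.36 ± 0.16, adjusted p = 1.5e-20). PPO1, a prophenoloxidase of crystal cells, read 629, 502, 502 and 549, with heart at 1905 (3.09 ± 0.22). The phagocytic receptor NimC1 read 148, 169, 157 and 138 (1.95 ± 0.16), and eater differed by 1.70. Every carcass array of these genes lay below the mean of heart. Basement membrane genes, which hemocytes and fat body make, were higher for 8 of 19, with a median of 0.54, among them the collagen IV genes vkg and Col4a1, at 1.59 and 1.35.

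Genes of the heart and of nephrocytes were higher for 5 of 16, beside 9.65% of all genes, with a median of 0.58. The transcription factor gene Hand read 312, 227, 255 and 245 against 5003 in heart, 3903, 4178, 2309 and 2156 in trachea and 226 in fat body (2.51 ± 0.24). The protein uptake receptor genes Cubn and Amnionless differed by 1.28 and 1.91, the latter at 80.2, 63.0, 119 and 79.8 against 2966 in heart. The summed signal of the 16 genes was 1275, 1054, 1234 and 1111 in carcass and 17636 in heart.

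Immune genes were higher in part, beside 9.65% of all genes. Of 8 antimicrobial peptide genes 5 were higher, with a median of 1.41, and of 21 genes of Toll signalling and melanization 10 were, with a median of 0.98. Mtk, metchnikowin, varied over the carcass arrays at 1571, 1037, 493 and 1085 and overlapped 8 other groups (2.40 ± 0.43, adjusted p = 3.2e-06). Drs, drosomycin, varied likewise at 1796, 926, 1102 and 799 (1.47 ± 0.39, adjusted p = 0.0012). SPE, the protease that activates the Toll ligand, was steadier at 1089.7, 955, 1027 and 860.2, with wings at 2747 (3.18 ± 0.17), and the beta-glucan sensor gene GNBP3 differed by 2.55.

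Markers of other organs were measured in the same arrays, and their counts stand beside 9.65% of all genes called higher and 1.79% called lower. Accessory gland genes, which encode seminal proteins, were higher for 8 of 16, with a median of 0.63, and their summed signal was 199, 1459, 2325 and 1750.1, against 13143 in whole fly and 146274 in the gland. Acp98AB read 22.5, 434, 971 and 531 (2.79 ± 0.46) and Acp53Ea 11.2, 178, 239 and 219.8 (1.88 ± 0.34), so carcass array 1 lay well below the other 3. Ovary genes were higher for 7 of 18, with a median of 0.78 and summed signals of 924, 4345, 684 and 756, against 32203 in ovary. The eggshell genes Vm34Ca, at 202, 1459, 115 and 178 (2.95 ± 0.36), and Cp36, at 67.5, 521, 53.0 and 21.7 (2.00 ± 0.32), were highest on carcass array 2. In fits run without 1 carcass array, chosen after these values were seen, 5 ovary genes were called higher without array 2 and 7 to 9 without another array. The accessory gland count was 8 without array 1 or 2 and 5 without array 3 or 4.

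Testis genes summed to 154, 515, 573 and 400.0 against 36262 in testes, again lowest on array 1, with a median of 0.34, and 1 of 20, ocn, was called, at 2.25, 43.1, 55.2 and 34.9 (1.04 ± 0.20). Without array 1 the count was 6, and ocn lost its call without array 2, 3 or 4. For mid gut, neuron and peripheral sensory genes, 1 or 2 calls among 13 to 18 genes are near the share of all genes, 9.65%, and nothing is read from them. Mid gut genes summed to 703, 973, 1228 and 774 against 58419 in mid gut, with 2 of 13 called and a median of -0.18. Of these tobi, a glucosidase gene, read 527, 585, 629 and 658, beside 621 in fat body, and betaTry, a trypsin gene, 58.6, 152, 300.1 and 47.4. Neuron genes summed to 588, 578, 609.9 and 453 against 16384 in brain, with 2 of 18 called and a median of -0.19. Photoreceptor genes summed to 73.9, 105, 134 and 95.8 against 51129 in eye, and 2 of 8 were lower, with a median of -0.71. The mean carcass sum was 0.980% of that in its own organ for accessory gland genes, 1.13% for testis, 5.21% for ovary and 1.57% for mid gut. These means hide a spread between arrays. The ovary sum was 4345 on array 2 and 684 to 924 on the others, and the accessory gland sum ranged from 199 to 2325. The part of these organs in other carcass values was not tested. Of the remaining lists, trachea genes were higher for 3 of 13 and lower for 1, the receptor gene btl at 1.40, 1.24, 1.97 and 4.32, peripheral sensory genes were higher for 1, the channel gene ppk23 (1.15 ± 0.17), and ribosomal protein genes for 1 of 41, with medians of 0.09, 0.16 and 0.13. The median of glia genes was -0.11.

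**Figure D4:**
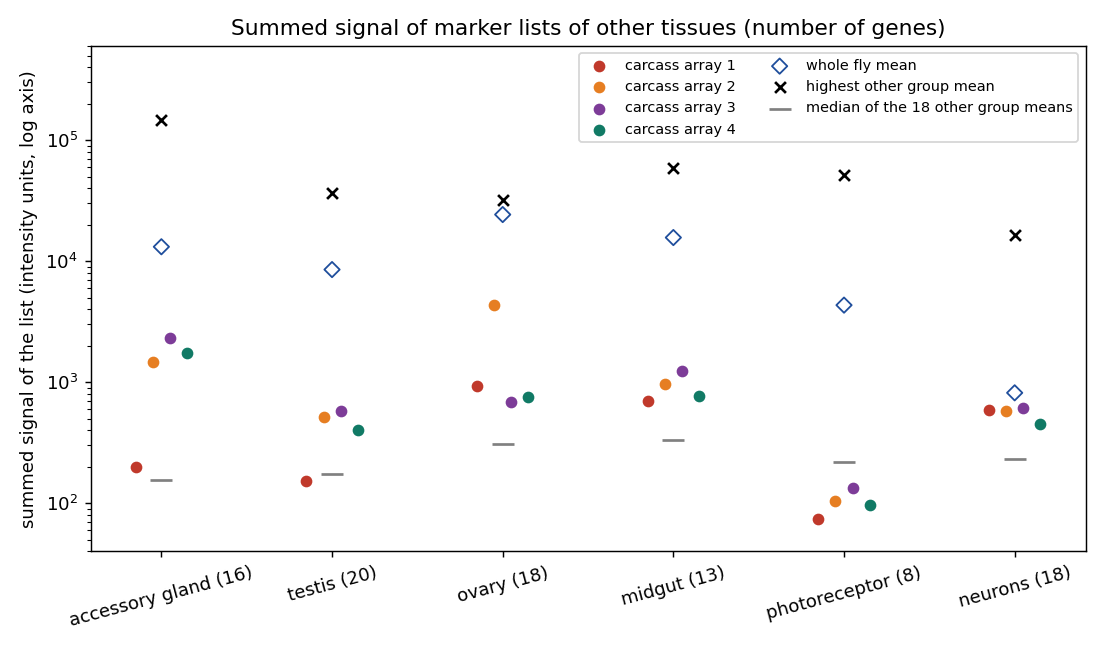
Summed signal (log axis) of marker genes of accessory gland, testis, ovary, mid gut, photoreceptors and neurons on the 4 carcass arrays, with the whole fly mean, the highest other organ and the median other organ. Carcass lies below whole fly for all 6 lists, array 1 is lowest for accessory gland, testis, mid gut and photoreceptor genes, and array 2 is highest for ovary genes.

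Among the lower genes, the ARID factor gene retn read 26.3, 52.0, 14.1 and 13.9 against 1746 in the ejaculatory duct and a level of 146 over the 18 organs (-2.21 ± 0.18, adjusted p = 8.4e-17). Lerp, a sorting receptor of lysosomal enzymes, read 50.7, 51.4, 48.0 and 31.4 against 1034 in mid gut and 219 over the organs, and ranked 18th of 19 (-2.06 ± 0.13, adjusted p = 1.2e-21). Epac, a cAMP-activated exchange factor, was near background at 0.656, 2.46, 6.07 and 1.28 and ranked last (-2.11 ± 0.22). Galphaf, a G protein subunit, and Pgant9, which starts mucin glycans, differed by -2.18 and -1.74. The photoreceptor genes rdgB and Arr2 were at -1.72 ± 0.19 and -1.39 ± 0.25, with Arr2 averaging 11107 in eye. Another rdgB probe set, averaging 30.7 in carcass against 39.2, was not called, at -0.47. Every carcass array lay below every other array for 9 probe sets (0.0518%), and the genes named on them were Capr, ifc, Sh3beta, CG15111, D1, CG31715, Gas41, CG5174 and CG32243.

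Carcass was last set against fat body, heart and wings, which share cell types with the body wall. These 3 comparisons use the same carcass arrays. Against fat body 1315 probe sets were higher (7.57%) and 555 lower (3.2%), against heart 1467 (8.45%) and 557 (3.21%), and against wings 1417 (8.16%) and 1489 (8.58%). Under quantile normalization of the arrays the split of higher to lower was 1165 to 789 against fat body and 944 to 759 against heart, and the median difference from heart over all probe sets was -0.04 in place of 0.21. Relative to fat body, 24 of 26 sarcomere genes were higher, with a median of 4.01, against 11 higher and 2 lower relative to heart and 15 higher and 1 lower relative to wings. Wing array 3 was the highest wing array for fln, TpnC4, Act88F, Act79B and TpnC41C. Its part in the sarcomere counts was not tested. Of the oenocyte genes relative to fat body, 1 of 22 was higher and 1 lower, with a median of -0.27, and relative to heart their median was -0.28. None of the 22 was called relative to heart by limma, with differences between -0.75 and 0.72, all under 2-fold, although 4 had a p under 0.05 both before and after adjustment. Relative to wings 17 of 22 were higher and 2 lower, and the median over all 22 was 3.51. Of the 22 fat body genes, 2 were higher and 4 lower relative to fat body itself, with a median of -0.43. The higher share is near the 7.57% of all probe sets, and nothing is read from it. The 2 higher genes were Lsp2 and sxe2, by 1.98 ± 0.54 and 3.42 ± 0.20. Lsp2 ranged from 37.6 to 633 on the fat body arrays and from 696 to 1228 in carcass. The lower genes included CCHa2, a peptide hormone gene, AkhR, the adipokinetic hormone receptor, and srp, a GATA factor, at -2.21 ± 0.19, -1.93 ± 0.22 and -1.64 ± 0.18.

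Genes of the epidermis and its products were compared in the same way. Of all probe sets, 7.57% were higher and 3.2% lower relative to fat body. The shares were 8.45% and 3.21% relative to heart and 8.16% and 8.58% relative to wings. Of the 7 genes listed for tyrosine breakdown, 5 were higher than in fat body and 5 than in heart, with medians of 2.36 and 2.78. Relative to wings 1 of them was higher and 3 were lower, with a median of -0.98. Tanning genes were higher for 10 of 17 relative to fat body. Relative to heart 11 were higher and 1 lower, and relative to wings 1 was higher and 7 lower. Cuticle proteins were higher for 15 and 21 of 98 relative to fat body and heart, with 1 lower in each. Relative to wings 5 were higher and 8 lower, near the shares of all probe sets, and nothing is read from these 2 counts. Cpr49Ab had the largest rise relative to wings among all genes, at 7.82 ± 0.51, and nub, a POU factor of the wing, the largest fall, at -5.83 ± 0.20. Relative to heart, Amnionless, Hand and Ms, which encodes the myosuppressin peptide, were lower in carcass, at -4.99 ± 0.28, -4.22 ± 0.33 and -4.51 ± 0.62, and 12 of 19 hemocyte genes were lower, with a median of -1.27. Heart was labelled with another kit than carcass, and the part of that kit in these values was not tested.

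**Figure D5:**
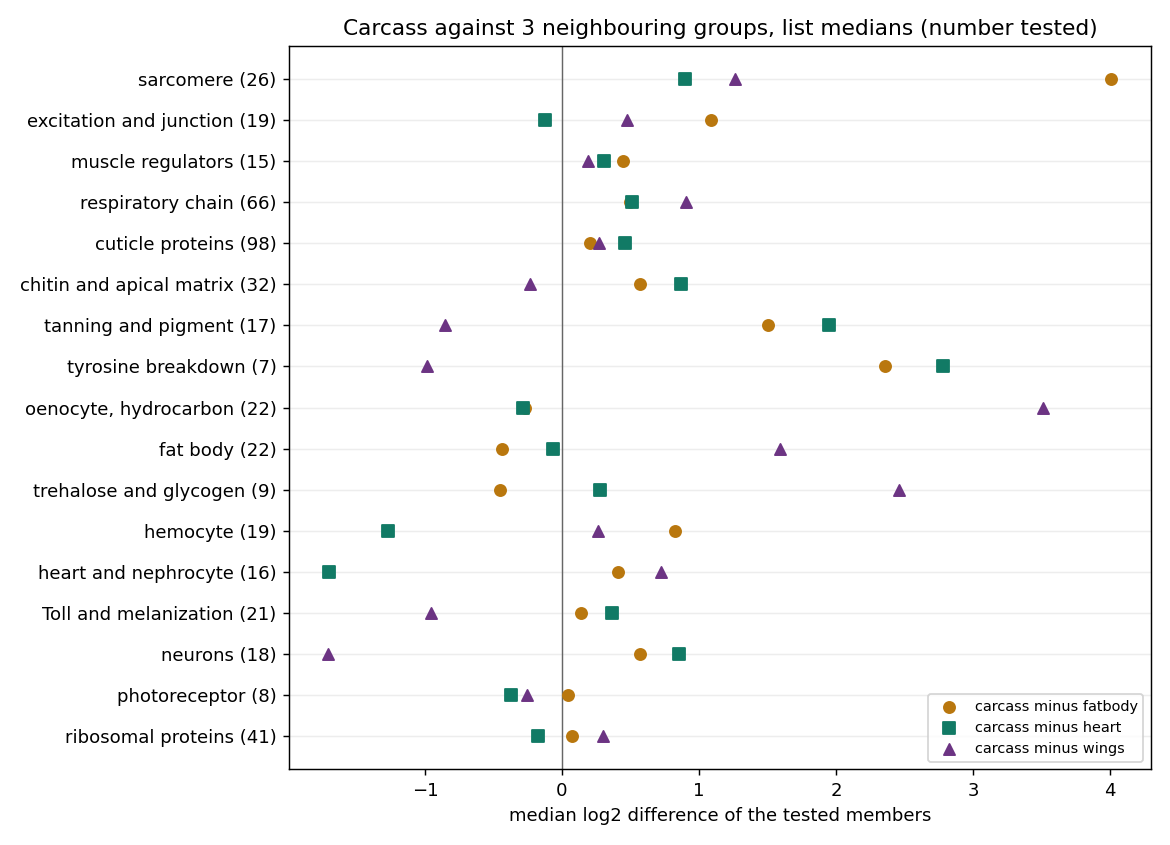
Median log2 difference of each gene group between carcass and fat body, heart and wings. Sarcomere and tyrosine breakdown genes have medians of 4.01 and 2.36 against fat body, oenocyte genes one of 3.51 against wings, and heart and nephrocyte genes one of -1.70 against heart.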

How the data were processed

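The file used holds 1 linear intensity per probe set and array, deposited by the authors for 136 arrays of 34 groups. Their summarisation software and its settings are not given in the sources used here. The trimmed mean over probe sets, with 2% cut at each end, was 100.0 on every array, so the deposited intensity had been scaled to a common level. Each of the 136 columns was matched to its sample.

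The 183 control probe sets were left out. Of the other 18769, GEO's platform annotation gave 1 gene for 13647, several for 402 and none for 4720. Arrays were rescaled to the common trimmed mean, 10 was added, and probe sets under the 40th percentile of a group's mean signals in all 19 groups were left out, which kept 17364. One limma fit (version 3.58.1, in R 4.3.3) with 19 groups gave each contrast, with Benjamini-Hochberg adjustment over all probe sets. The fit was run on simulated data with the same spread in every group, so unequal spreads between groups were not tested. A gene is given by its brightest probe set, and of the 68 measured list or named genes with several probe sets, 23 had a probe set with another call and 0 an opposite one. Among the 23, the genes named in the text were ATPsynbeta, Cpr47Ef, Fhos, Gpdh1, Msp300, Pgant9, dsx, grh, rdgB, svp and vg. Redone mated spermatheca array 2 was left out.

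Named genes were the 20 highest and 10 lowest differences, the 15 genes farthest above the next organ, the leading and lowest members of 31 gene lists, the extremes against fat body, heart and wings, and the genes most like Cyp4g1. The members and lists were chosen with earlier results of these data known. Replicate numbers did not pair arrays: deviations of same-numbered arrays of carcass and the other groups correlated at -0.08 to 0.09.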

Additional observations from a re-analysis of the deposited data

Results flagged for a closer look

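For 8 of 149 named genes, 1 carcass array stood apart from the other 3 by Dixon's test on log2 signals, and chance gives about 1 in 20. Array 1 was low for Acp53Ea, an accessory gland gene, at 11.2 against 178 to 239 on the others, for CheB93b at 18.3 against 44.0 to 45.8, and for grh at 75.5 against 143 to 162. Array 1 was high for Zasp67, at 26.1 against 14.8 to 16.1. Array 2 was low for ap, at 83.5 against 106 to 112. Array 3 was high for Fbp2, at 6.62 against 1.37 to 1.87, all under the added 10. Array 4 was low for Lerp, at 31.4 against 48.0 to 51.4, and high for svp, at 301 against 167 to 177. Accessory gland and testis genes as lists were also lowest on array 1, and so were mid gut and photoreceptor genes.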

How the results depend on the processing

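The sarcomere count (23), the fat body count (19) and the oenocyte count (16) moved by less than 1.5 times under every setting tried, within 22 to 24, 16 to 19 and 15 to 18. Cuticle genes called higher numbered 24 with a pseudocount of 2% of the trimmed mean in place of 10%. With that pseudocount, 2133 probe sets were higher and 622 lower than the mean of the organs, 1976 higher and 1119 lower than fat body, 3775 higher than heart and 3188 higher than wings. With a pseudocount of 40%, 83 were lower than the mean of the organs, 778 were higher and 303 lower than fat body, 601 higher and 368 lower than heart, and 828 higher and 972 lower than wings. The lower count against all organs was 460 under quantile normalization, where the median difference was -0.14 in place of -0.03, 455 without eye, heart and spermatheca, 425 without fat body, heart, trachea and wings, and 124 against the median organ. Quantile normalization gave 944 probe sets higher than heart. The cause of these moves was not tested. Leaving out 1 replicate number, of carcass or of the other organs, gave 1343 to 1401 higher and 254 to 335 lower. With the replicate number as a block, 1360 were higher and 268 lower, and no named gene changed its call. Against the median organ in place of the mean, 109 of 149 named differences moved by more than the carcass SD. No named gene that was called changed direction under the settings run. With a pseudocount of 40%, 20 named genes lost their call, among them nau, Ddc, dsx, grh and Amnionless. The genes ocn and ppk23 lost their calls under quantile normalization, vg and blow without carcass array 4 (0.96 and -0.90) and bond there too (-0.98), while svp reached 1.39 and Desat1 1.19 without eye, heart and spermatheca. Calls were also lost for 4 named genes with the mean of all probe sets, 3 with thoracic muscle added, 3 without eye, heart and spermatheca, 2 with spermatheca groups and brain with ganglion merged, and 1 without fat body, heart, trachea and wings. With the spread of the carcass arrays alone, Acp53Ea, Cp36 and ocn lost their calls (adjusted p = 0.062, 0.056 and 0.098). Signals near or under the added 10, such as those of ple and Epac, give no reliable fold, and 4 carcass arrays limit the precision of every difference.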
